A study of Saccharomyces cerevisiae with 18 samples.

Results

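Variation between samples of the same strain was measured in poly(A) RNA of budding yeast (Saccharomyces cerevisiae). All 18 of 18 samples entered, 6 each of K467N, K467R and WT, and each gene's log2 CPM (CPM being counts scaled to a common number of reads on genes) was centred on the mean of its own strain. Differences between strain means therefore dropped out, and what remained was which genes differ between samples of 1 strain, which genes move together, and how this compares between the strains. All strains were S288C with NUP60, which encodes a nuclear basket protein of the nuclear pore, fused to GFP. Lysine 467 of Nup60 was replaced by asparagine in K467N and by arginine in K467R, and was kept in WT. K467R carried the HIS3MX6 marker at NUP60, whereas K467N and WT carried the HIS3 gene of Saccharomyces kluyveri. Asynchronous cultures were grown with shaking at 25 °C in YP medium with 2% glucose and adenine, and were collected at an optical density of 0.6 to 0.7 after dilution to 0.1. Nothing in the labels says that the 6 samples of a strain were separate cultures or how many clones were used, so the spread below is that between these samples and may be partly technical.

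Counts on genes numbered 12395725 to 19093010 per sample, and 5660 of 7036 features had enough counts to be tested. Between samples of 1 strain, log2 CPM correlated with a median r of 0.995 over 45 pairs. NUP60 had 82.7 to 90.9 CPM in K467N, 84.8 to 94.4 CPM in K467R and 77.0 to 93.1 CPM in WT, and counts on it do not show which residue is encoded. HIS3 had 71.8 to 87.2 CPM in K467N and 78.5 to 95.8 CPM in WT, and was at 0 in 5 of the 6 K467R samples. Markers of mating type a were high in every sample (STE2, the alpha-factor receptor, at 326 CPM or more), and STE3, the a-factor receptor of alpha cells, reached at most 1.67 CPM.

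Iron uptake is the best known of the programmes that the most variable genes belong to. When iron is short, the factor Aft1 (with its paralog Aft2) enters the nucleus, binds sites that contain TGCACCC and raises a set of genes called the iron regulon. Its products include the cell wall mannoproteins Fit1, Fit2 and Fit3, which hold iron-loaded siderophores, ferric reductases of the FRE family, the Fet3 oxidase with its permease Ftr1, the siderophore transporters Sit1, Arn1, Arn2 and Enb1, and Tis11 (Cth2), which marks messages of iron-using proteins for decay. Copper uptake runs through the factor Mac1 in a similar way, with the transporter Ctr1 and the reductases Fre1 and Fre7.

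The windows upstream of FIT1, FIT2 and FIT3 are shown because these were the 3 most variable genes at 10 CPM or more. Each window holds bases 300 to 101 before the start codon in the R64 reference (RefSeq), read 5′ to 3′ on the strand of the gene, and capitals mark TGCACCC on either strand. The windows lie at chrIV:1505001-1505200 (minus strand) for FIT1, chrXV:1059231-1059430 (plus strand) for FIT2 and chrXV:1061156-1061355 (minus strand) for FIT3.
FIT1: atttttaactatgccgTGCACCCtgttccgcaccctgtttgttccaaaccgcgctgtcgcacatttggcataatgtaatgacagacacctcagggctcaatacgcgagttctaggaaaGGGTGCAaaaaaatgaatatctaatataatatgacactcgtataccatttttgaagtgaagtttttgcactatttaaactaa
FIT2: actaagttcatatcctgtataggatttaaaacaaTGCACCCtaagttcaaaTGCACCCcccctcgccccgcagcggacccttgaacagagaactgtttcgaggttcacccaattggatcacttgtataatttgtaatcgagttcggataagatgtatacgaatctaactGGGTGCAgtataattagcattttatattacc
FIT3: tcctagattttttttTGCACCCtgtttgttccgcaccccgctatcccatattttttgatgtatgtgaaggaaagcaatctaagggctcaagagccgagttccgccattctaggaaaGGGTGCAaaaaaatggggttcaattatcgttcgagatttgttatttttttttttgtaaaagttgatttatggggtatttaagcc
The motif begins 284 and 182 bases before the start codon of FIT1, 266, 249 and 131 bases before that of FIT2, and 285 and 184 bases before that of FIT3.

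The coding sequences of 4 short genes are shown beside the largest set of genes that moved together, in which thymine content stood out. Capitals mark T. OST5 (chrVII:72749-73158, minus strand, 2 coding parts joined) encodes a subunit of oligosaccharyltransferase and PMP2 (chrV:122798-122929, minus strand) a proteolipid that regulates the plasma membrane proton pump. RPL41B (chrIV:221724-221801, minus strand) encodes a ribosomal protein and MFA1 (chrIV:1385176-1385286, plus strand) the a-factor precursor, and both were highest in K467R 1, where PMP2 was lowest. OST5 and PMP2 belonged to the largest set, whereas RPL41B and MFA1 fell in other groups. The pairs also differed in GC content, for which these levels are not corrected. It was 37.5 and 37.1% in OST5 and PMP2, and 41.0 and 45.0% in RPL41B and MFA1.
OST5: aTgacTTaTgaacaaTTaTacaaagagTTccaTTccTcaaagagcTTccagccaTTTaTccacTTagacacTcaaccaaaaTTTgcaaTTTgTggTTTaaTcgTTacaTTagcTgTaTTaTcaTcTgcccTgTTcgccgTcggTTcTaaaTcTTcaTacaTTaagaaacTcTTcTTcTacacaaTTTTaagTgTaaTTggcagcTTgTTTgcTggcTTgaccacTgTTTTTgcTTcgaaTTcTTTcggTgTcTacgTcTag
PMP2: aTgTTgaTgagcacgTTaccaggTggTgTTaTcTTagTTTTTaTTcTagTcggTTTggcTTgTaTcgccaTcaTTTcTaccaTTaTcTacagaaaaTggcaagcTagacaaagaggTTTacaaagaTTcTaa
RPL41B: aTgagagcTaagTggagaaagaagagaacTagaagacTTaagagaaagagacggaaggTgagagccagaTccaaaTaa
MFA1: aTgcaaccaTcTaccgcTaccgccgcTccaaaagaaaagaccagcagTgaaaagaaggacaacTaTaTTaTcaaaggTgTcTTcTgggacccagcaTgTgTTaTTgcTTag
Thymine makes up 36.8% of the 261 coding bases of OST5 and 34.8% of the 132 of PMP2, against 21.6% of the 111 of MFA1 and 11.5% of the 78 of RPL41B.

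Most genes varied little. The pooled within-strain SD of log2 CPM (15 residual degrees of freedom) had a median of 0.121 over all 5660 tested genes, and of 0.113 over the 4944 genes at 10 CPM or more, where 90% lay between 0.0553 and 0.215. Counting error alone would give a median SD of 0.0480 in that set. The spread exceeded counting error in 4755 of 5660 genes, or 84% (Poisson fit with strain as the term, Pearson chi-square with Benjamini-Hochberg adjustment at 0.05), so almost any gene with enough reads passed. The edgeR biological coefficient of variation was 7.61% over all samples.

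**Figure D1:**
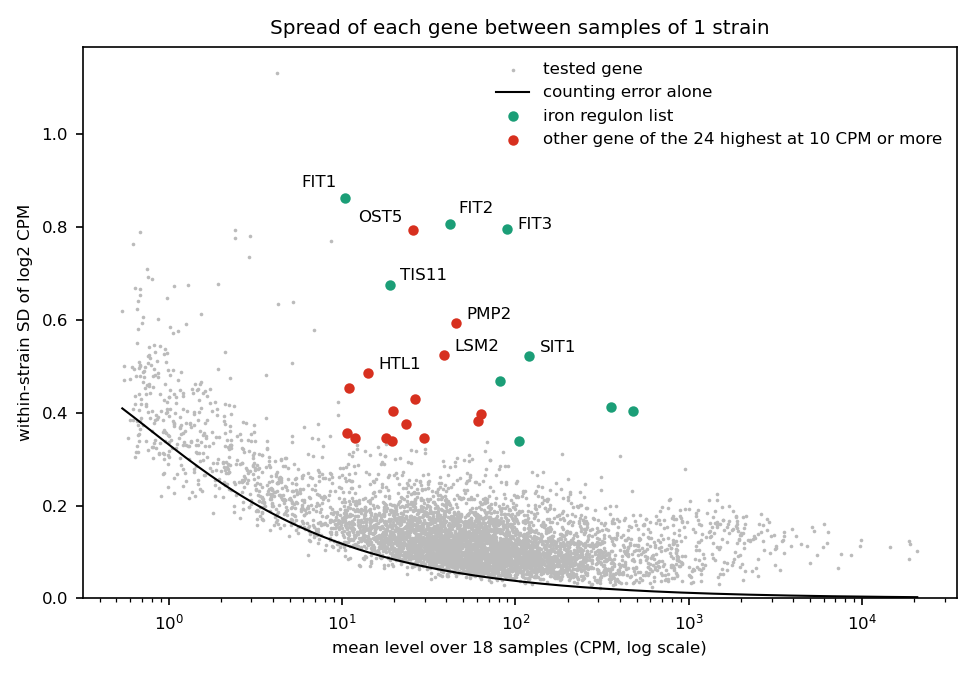
Within-strain SD of log2 CPM (vertical axis) against the mean level over 18 samples in CPM on a log scale (horizontal axis), 1 point per tested gene, with the SD that counting error alone gives as a line. The 24 genes of largest SD at 10 CPM or more are coloured and split into members of the iron regulon list and others, and FIT1 is the highest of them at 0.86.

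The 24 genes of largest SD at 10 CPM or more ran from FIT1 at 0.86 down to DDR48 at 0.34, with KEI1 (0.34) and GPC1 (0.33) just outside. These SDs chose the genes and are given as a description. Of the 24, 9 were in the iron regulon list, which holds 26 of the 4921 annotated genes at that level. The other members included OST5 (0.79), PMP2 (0.59), LSM2 (0.52), a core subunit of the Lsm RNA-binding rings, and HTL1 (0.49), a subunit of the RSC chromatin remodeller. Below 10 CPM, YKR040C had an SD of 1.13 at a mean of 4.22 CPM. After subtraction of counting variance the same list kept 23 of its 24 genes.

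**Figure D2:**
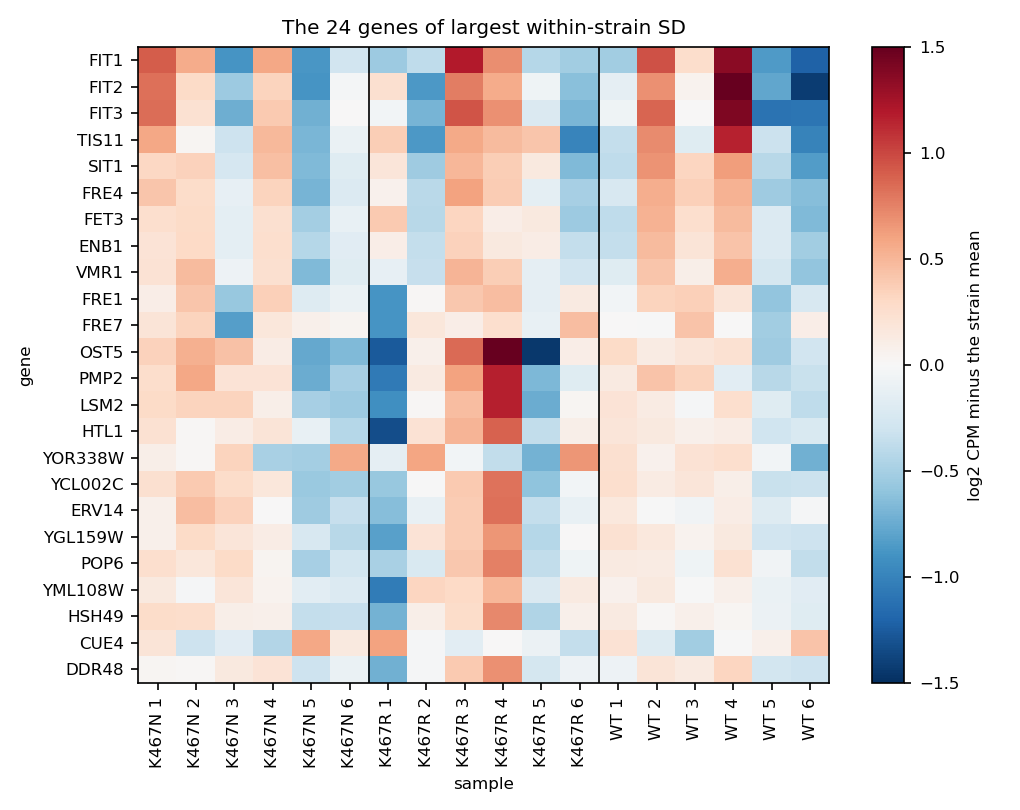
Log2 CPM minus the strain mean for the 24 genes of largest within-strain SD at 10 CPM or more (rows) in the 18 samples (columns, K467N, K467R, then WT). Iron genes such as FIT1, FIT2 and TIS11 are highest in WT 4 and lowest in WT 6 among WT samples, while OST5, PMP2 and LSM2 are highest in K467R 4.

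FIT2 (YOR382W) had its lowest, median and highest values at 17.8, 36.3 and 58.7 CPM in K467N, at 18.8, 36.5 and 58.4 CPM in K467R, and at 15.6, 40.8 and 128 CPM in WT. The 3 strains overlapped almost fully in the lower range, and WT 4 at 128 CPM and WT 2 at 67.5 CPM stood above every K467N and K467R sample. Within WT the highest sample was 8.23 times the lowest. FIT3 (YOR383C) followed the same samples, with 45.0, 81.7 and 134 CPM in K467N, 44.1, 65.6 and 138 CPM in K467R, and 40.6, 85.6 and 231 CPM in WT. FIT1 (YDR534C) had 4.40, 9.45 and 15.5 CPM in K467N, 5.25, 5.81 and 17.8 CPM in K467R, and 4.55, 10.2 and 27.6 CPM in WT. K467N 1, K467R 3 and WT 4 were the highest sample of their strain for all 3 FIT genes.

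TIS11 had 9.73, 15.3 and 23.6 CPM in K467N, 9.31, 24.4 and 27.7 CPM in K467R, and 8.61, 14.6 and 39.0 CPM in WT. In K467R its samples split, with 4 samples at 24.1 CPM or more and K467R 2 and K467R 6 near 10 CPM. SIT1, which imports ferrioxamine-type siderophores, spanned 71.0 to 154 CPM in K467N, 68.1 to 153 CPM in K467R and 68.4 to 195 CPM in WT. The low ends of the 3 strains nearly coincided for this gene. FET3 spanned 318 to 555 CPM in K467N, 305 to 585 CPM in K467R and 300 to 682 CPM in WT, and FTR1 spanned 167 to 215, 159 to 290 and 159 to 245 CPM in the same strains. The oxidase thus varied more (SD 0.40) than its permease partner (SD 0.26). ENB1, the enterobactin transporter, had an SD of 0.34 and ARN2 one of 0.29.

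FIT2 and FIT3 lie side by side on chromosome XV with the reductase genes FRE3 (YOR381W) and FRE5 (YOR384W) at their outer sides. FRE5 varied with them, with 3.71 to 13.2 CPM in K467N, 3.24 to 11.5 CPM in K467R and 4.72 to 21.3 CPM in WT, and an SD of 0.77. FRE3 had an SD of 0.17, with 17.5 to 25.1, 17.2 to 22.0 and 18.5 to 27.3 CPM in K467N, K467R and WT. FRE3 thus had the smallest SD of the 4 neighbours, though one above the median of 0.113 for genes at 10 CPM or more.

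All 28 members of the iron regulon list were tested, and 26 were at 10 CPM or more. Their median SD was 0.261, against 0.121 for all tested genes, and 15 of the 26 (57.7%) were among the 248 genes (5.02%) of largest SD. Members moved together, with a median pairwise correlation of 0.683 across the 18 centred samples, against -0.000311 over all genes. The genes of a sample share its library, so this is a description, with no p. The mean deviation of the list ran from -0.34 in K467N 5 to 0.24 in K467N 1, from -0.29 in K467R 6 to 0.32 in K467R 3, and from -0.44 in WT 6 to 0.42 in WT 4. Its SD over samples was 0.23 in K467N, 0.23 in K467R and 0.35 in WT. The count was 15 of 26 without WT 4 and WT 6, and 17 of 26 without K467R 1 and K467R 4. Without WT 4 alone, OST5 in place of FIT1 had the largest SD of all genes at 10 CPM or more. Some members were steady. CTH1, the paralog of TIS11, had an SD of 0.06 and MRS4, a mitochondrial iron carrier, one of 0.07.

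TGCACCC occurred on either strand of the 300 bases before the start codon in 15 of 28 list members (53.6%), against 75 of 5472 tested genes (1.37%). The list was drawn up as genes under Aft1, so this share is not separate from list membership. The 15 members with the motif had a median SD of 0.34 (0.16 to 0.86), and the 13 without it 0.18 (0.06 to 0.47). FRE4 and FRE1 had no match and were among the variable members, with SDs of 0.47 and 0.41. A match of letters is not a bound site, and its absence from the window says nothing of the factor. A steady list held the motif of its own factor at a similar share. TGACTCA, the Gcn4 motif, lay upstream of 26 of 55 amino acid synthesis genes (47.3%), against 2.70% of tested genes, and their median SD was 0.0757. Whether a motif goes with spread was not tested.

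Genes that moved together were sought among the 5% of largest SD after removing from each sample the smooth trend of the deviations in coding length and GC content. Average linkage at a mean r of at least 0.5, with 6 genes or more, placed 202 of 247 genes in 9 groups. The groups were chosen from these values, so their sizes and levels are given with no test. Without removal of the trend, 235 of 248 genes fell into 3 groups, and the iron genes and OST5 shared the largest of them. In the trend-removed values 17 iron list members formed a group of 31 with PHO89, a sodium-coupled phosphate transporter (SD 0.31), VMR1, a vacuolar ABC transporter (0.40), NCE103, carbonic anhydrase (0.27), and COT1, a vacuolar zinc and cobalt transporter (0.15). In that group 13 of the 31 genes (41.9%) had TGCACCC upstream. The 17 list members in it were listed as genes under Aft1, so this share is not separate from list membership. PHO89 had 133, 187 and 230 CPM as its lowest, median and highest values in K467N, 128, 185 and 217 CPM in K467R, and 141, 184 and 251 CPM in WT. Its lowest samples (K467N 5, K467R 6 and WT 6) were those in which the iron list was lowest.

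The largest group, with 102 genes, was led by OST5, PMP2, LSM2, HTL1 and YCL002C. OST5 (YGL226C-A) had 17.9, 35.8 and 44.1 CPM in K467N, 5.87, 17.3 and 52.3 CPM in K467R, and 16.1, 25.8 and 28.4 CPM in WT. K467R 1 and K467R 5 were the lowest of all 18 samples for this gene and K467R 4 the highest, which is an 8.92-fold range within K467R. PMP2 (YEL017C-A) had 30.4, 59.0 and 76.5 CPM in K467N, 15.5, 32.3 and 73.2 CPM in K467R, and 33.6, 44.7 and 60.4 CPM in WT. LSM2 had 29.2, 48.6 and 53.6 CPM in K467N, 16.5, 32.0 and 70.7 CPM in K467R, and 28.1, 38.0 and 43.7 CPM in WT. In all 3 genes K467R 1 and K467R 5 lay below every other sample.

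Of the 102 genes, 3 were in the hexose transport list, 2 in the respiratory chain list and 2 in the list of anaerobic genes, and no other list had 2 or more members in it. Other members, picked after their values were seen and not tested as a theme, were ERV14 and ERV29, cargo receptors of COPII vesicles, with SDs of 0.38 and 0.25, ERD2, the receptor that returns escaped residents to the endoplasmic reticulum (0.29), and YIP1 and GOT1 of vesicle transport (0.27 and 0.25). GWT1, GPI17 and GPI18 of glycosylphosphatidylinositol anchor synthesis (0.32, 0.28 and 0.32), ELO3, a fatty acid elongase (0.26), and the hexose transporters HXT1 and HXT2 (0.22 and 0.23) were in it too. The median T content of the group was 32.0%, against 27.3% over all annotated genes at 10 CPM or more. Coding sequences in more than 1 part were found for 8 of the 102 genes and for 236 of 4921 genes (4.80%). The mean level of the group ran from -0.20 in K467N 5 to 0.22 in K467N 2, from -0.32 in K467R 1 to 0.23 in K467R 4, and from -0.15 in WT 5 to 0.17 in WT 3.

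A relation to T content was also seen over all genes, in the same trend-removed values in which the group was found, so it is not separate support. Loadings of the first component of the trend-removed values had a Spearman correlation of 0.389 with T content over 4921 genes, and T content accounted for 20.3% of their variance. It is a description across genes, which are not independent replicates. Genes were also split into 5 bins of equal size by T content. The bin richest in T (29.6 to 46.8%) had a median trend-removed SD of 0.0909. The bin poorest in T (10.3 to 24.6%) came next with 0.0771, and the bins between had 0.0698 to 0.0724, so the SD did not rise steadily with T content. The part of library preparation in this relation was not tested.

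A group of 9 was led by FRE7 and FRE1 and also held CTR1, FET4 (a low-affinity iron and copper transporter), IRC7 and REE1. Of the 9, FRE7 and CTR1 were in the copper list and FRE1 in the iron list. FRE7 had 11.1, 21.6 and 24.9 CPM in K467N, 10.1, 20.6 and 26.0 CPM in K467R, and 13.2, 19.1 and 25.6 CPM in WT. K467N 3, K467R 1 and WT 5 were the lowest of their strains, and the remaining samples lay at 17.4 CPM or more. CTR1 had 182, 254 and 282 CPM in K467N, 159, 228 and 269 CPM in K467R, and 189, 238 and 270 CPM in WT, with the same 3 samples lowest. FRE1, a target of Aft1 and of Mac1, spanned 249 to 494 CPM in K467N, 164 to 417 CPM in K467R and 241 to 463 CPM in WT. It was lowest in the same samples, and in trend-removed values it was grouped with FRE7 and CTR1 and not with the other iron genes. The group's mean level was -0.41 in K467N 3, -0.54 in K467R 1 and -0.33 in WT 5, whereas the iron list was lowest in K467N 5, K467R 6 and WT 6.

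**Figure D3:**
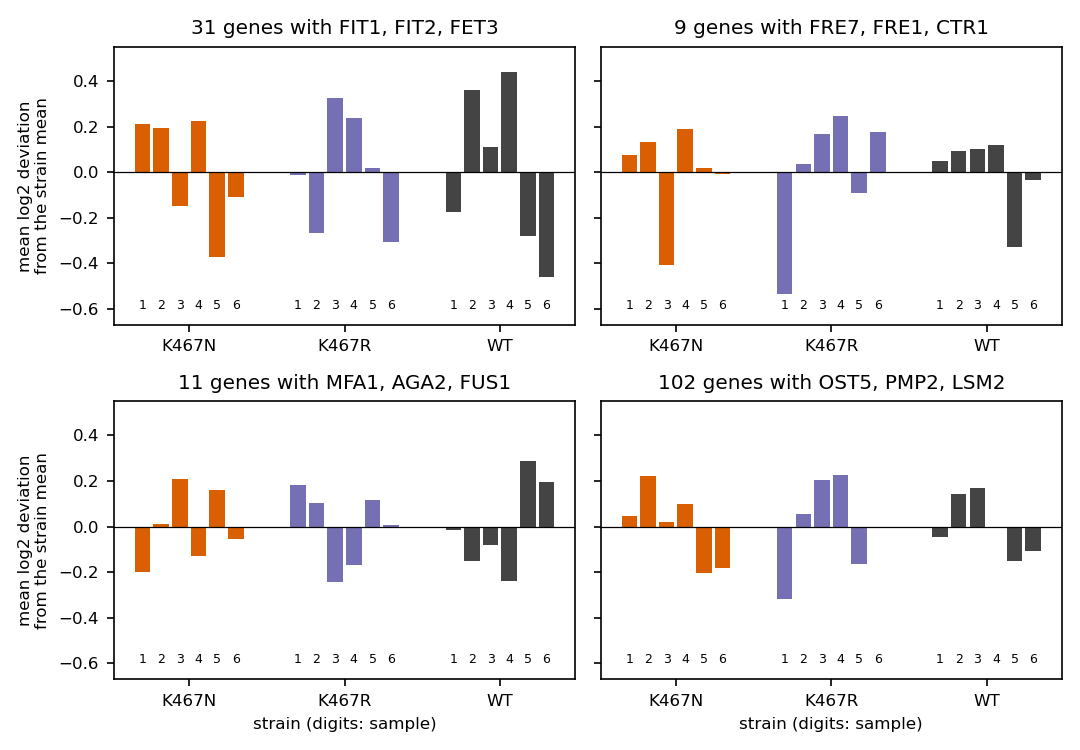
Mean trend-removed log2 deviation from the strain mean for the genes of each of 4 groups, 1 panel per group, with 1 bar per sample (digits) and strains on the horizontal axis (K467N, K467R, WT). In the panel with FRE7, FRE1 and CTR1, K467N 3, K467R 1 and WT 5 lie at -0.41, -0.54 and -0.33, apart from the other samples of their strains.

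A further group of 11 held 4 genes of the mating list and 3 of the stress list under Msn2 and Msn4. MFA1, AGA2 (the adhesion subunit of a-agglutinin), ASG7 and FUS1 (a cell fusion protein) were the 4, HXK1 (a hexokinase), GSY1 (glycogen synthase) and GAD1 were the 3, and HXT4, MSN4, CYC1 and PTR2 made up the rest. HXK1 had 17.6, 19.5 and 23.3 CPM in K467N, 13.9, 19.6 and 25.2 CPM in K467R, and 16.4, 18.3 and 31.5 CPM in WT. AGA2 had 51.6, 63.0 and 78.4 CPM in K467N, 52.6, 79.1 and 86.9 CPM in K467R, and 51.2, 60.7 and 83.1 CPM in WT. The group was highest in WT 5 (0.29) and lowest in WT 4 (-0.24) among WT samples. It ran from -0.20 in K467N 1 to 0.21 in K467N 3 and from -0.24 in K467R 3 to 0.18 in K467R 1. The samples highest for the iron list (K467N 1, K467R 3 and WT 4) were thus the lowest for this group in each strain.

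YOR338W, of unknown function, led a group of 11 with BSC1, AQR1 (a multidrug exporter), PRM7, ISU1 (a scaffold for iron-sulphur clusters), PFK27, LEU2, IDH1 and 3 others. YOR338W had 6.59, 9.79 and 14 CPM in K467N, 6.03, 9.38 and 15.9 CPM in K467R, and 7.36, 13.5 and 14.6 CPM in WT, with WT 6 well below the other WT samples. LEU2, an enzyme of leucine synthesis at 317 to 464 CPM over all samples, had an SD of 0.17 and IDH1, a subunit of isocitrate dehydrogenase, also 0.17. The group's level ran from -0.28 in K467N 5 to 0.14 in K467N 1, from -0.33 in K467R 5 to 0.26 in K467R 2, and from -0.29 in WT 6 to 0.14 in WT 3. A group of 9 with STP4, the glycolytic genes TDH1 and ENO1, the flocculin FLO11, HAP4 and CWP2 was highest in K467R 6 at 0.31. It was at 0.26 in K467R 2 and between -0.15 and -0.13 in the other K467R samples. In the samples of K467N and WT it stayed between -0.18 and 0.12. A group of 9 with HSP42, COX5B, STF1, ICL2 and RPL41B was highest in K467N 5 (0.23), K467R 1 (0.16) and WT 5 (0.24).

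Across all genes, the first principal component of the centred values held 38.1% of the within-strain variance and the second 11.8%. Scores on the first were lowest in K467R 1 (-14.1) and K467N 5 (-10.5) and highest in K467N 2 (11.5) and K467R 4 (10.5). WT samples ran from -7.70 to 7.49. The scores had the same sign in every strain for some places in the order of samples. They were below 0 for sample 5 (-10.5 in K467N, -5.80 in K467R and -7.70 in WT) and sample 6 (-6.39, -0.926 and -5.64), and above 0 for sample 2 (11.5, 0.981 and 7.17) and sample 4 (5.51, 10.5 and 1.82). The iron list was likewise below its strain mean in samples 5 and 6 and above it in sample 4 of every strain. The labels do not say what the order of samples stands for, and its part in these values was not tested. Permutation within strains, used below, takes the samples of a strain as exchangeable. Across genes, the loadings went with gene length and base composition. Loadings on the first component had Spearman correlations of 0.667 with log2 coding length, -0.701 with GC content and 0.533 with T content over 4921 genes. Coding length and GC content together explained 68.6% of the variance of the first loadings and 62.3% of the second. Fitted to the deviations of single samples they explained less in some, from 5.81% in K467R 2 and 14.8% in WT 4 to 66.2% in K467N 2. Genes were split into 4 bins each by length and by GC content. The 487 genes in both the longest and the lowest-GC bin had a median of 0.23 in K467N 2 and -0.18 in K467N 5. That median was 0.16 in K467R 4 and -0.22 in K467R 1, and 0.12 in WT 2 and -0.13 in WT 5. The 476 genes in both the shortest and the highest-GC bin went the other way, with medians of -0.21 in K467N 2, 0.24 in K467R 1 and 0.12 in WT 5.

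**Figure D4:**
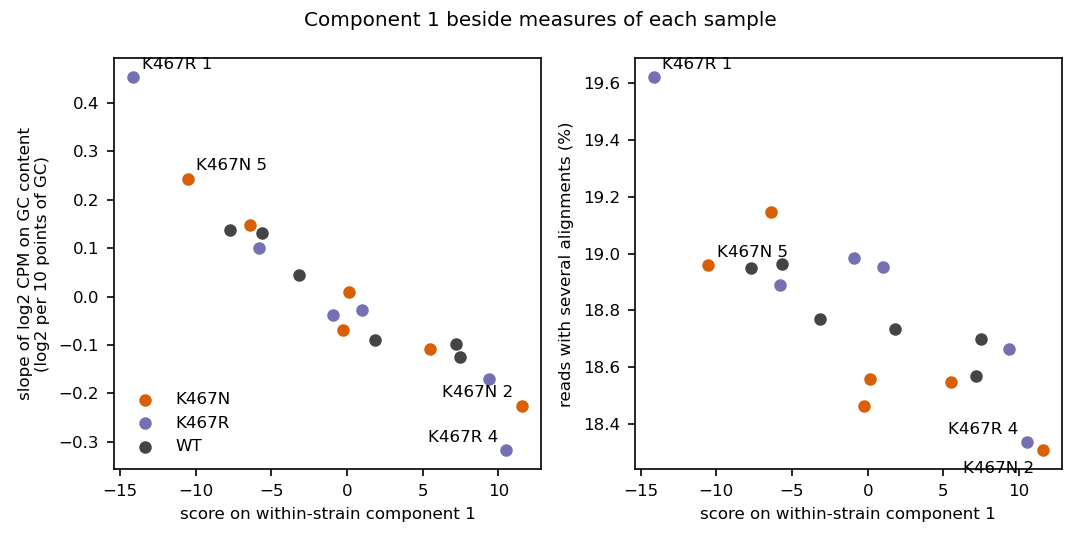
Slope of log2 CPM on GC content in log2 units per 10 points of GC (left) and share of reads with several alignments in % (right) against the score on the first within-strain component (horizontal axes), 1 point per sample coloured by strain. Scores run from -14.1 in K467R 1 to 11.5 in K467N 2, and both measures fall along them in every strain.

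Scores on the first component were set against 7 measures of each sample, and those on the second likewise, which made 14 relations over 18 samples with permutation within strains. The slope of the deviations on GC content is computed from the same gene values, so its relation to the first component (Pearson r = -0.957, Spearman rho = -0.975) is a restatement. The share of reads aligned to several places lies outside the gene counts and had r = -0.880 and rho = -0.895, with a permutation p of 1e-05 for each, the smallest that these permutations can give (adjusted p = 2.8e-05 and 4.67e-05). It was -0.829 without K467R 1 and K467R 4, the samples farthest from its median, and -0.859, -0.925 and -0.910 within K467N, K467R and WT. That share ran from 18.3 to 19.6% of reads, and reads of near-identical ribosomal protein and glycolytic gene copies fall in it, so it is not independent of their levels. The share of ambiguous reads had r = -0.970 and rho = -0.967 (permutation p of 1e-05 each, adjusted p = 2.8e-05 and 4.67e-05). It was -0.957 without K467R 1 and K467R 4, and -0.945, -0.995 and -0.969 within K467N, K467R and WT. Ambiguous reads, 0.305 to 0.349% of all, fall on more than 1 gene. Their share therefore depends on the levels of those genes and is not independent of the gene values either. The share outside genes had r = 0.608 and rho = 0.542 (permutation p = 0.0161 and 0.0345, adjusted p = 0.0376 and 0.0805), and r = 0.340 without K467N 2 and K467R 4, so that relation rested on those samples. Within strains it was 0.847 in K467N, 0.592 in K467R and -0.000294 in WT. Depth had r = -0.0778 and rho = -0.125 (permutation p = 0.758 and 0.629, adjusted p = 0.817 and 0.881), and r = 0.0972 without WT 1 and WT 3. Within K467N, K467R and WT it was -0.0131, 0.0722 and -0.241. On the second component none of the 7 relations passed, with adjusted p from 0.140 to 0.902 for Pearson's r. Some had opposite signs within strains, which the pooled r does not show. The share of ambiguous reads had -0.0356 over all samples, but -0.639, 0.733 and -0.726 within K467N, K467R and WT. The slope on coding length, computed from the same gene values, had 0.453 over all samples and 0.765, -0.403 and 0.923 within these strains. The values within strains were not tested.

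The same measures were tested gene by gene with edgeR's quasi-likelihood test, with strain in the fit and Benjamini-Hochberg adjustment. Depth was tracked by 0 genes in either direction (0% higher and 0% lower) among the 5660. The share of reads outside genes was tracked by 235 genes upward (4.15%) and by 54 downward (0.954%), by 0 genes without K467R 4, and by 13 and 16 genes without K467N 5 and K467N 6. The share with several alignments was tracked by 1346 genes upward (23.8%) and by 1408 downward (24.9%). Of 139 cytosolic ribosomal protein genes 125 rose with it and 0 fell, and of 17 glycolytic genes 14 rose and 0 fell. Reads of near-identical copies of such genes are part of that share, so these counts are not independent of it. Of 28 iron list members 2 rose and 7 fell. FIT1 was among them with -0.52 log2 units per SD of that share (adjusted p = 0.0357), whereas FIT2 had -0.26 (adjusted p = 0.269).

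Ribosomal protein genes showed how removal of the trend changed the picture. The trend was fitted to all annotated genes at 10 CPM or more, these among them. Changes shared by genes of similar length and GC content can therefore be removed with it, whatever their source. Their median SD was 0.151 before and 0.0446 after, and their median pairwise correlation 0.930 before and 0.423 after. Histone genes had 0.850 before and 0.0636 after, and subunits of the proteasome 0.632 and 0.381. Glycolytic genes kept more of theirs, with 0.630 before and 0.557 after, and the iron list had 0.683 before and 0.730 after. The mean level of ribosomal protein genes ran from -0.26 in K467N 2 to 0.16 in K467N 5, from -0.15 in K467R 3 to 0.19 in K467R 1, and from -0.20 in WT 3 to 0.14 in WT 1.

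The levels of 12 pairs of lists were compared over the 18 centred samples. Chaperone genes under Hsf1 and proteasome genes moved together (r = 0.859, rho = 0.903, permutation p = 0.00012 and 1e-05, adjusted p = 0.00036 and 9e-05). The relation was 0.830 without K467N 5 and WT 5, 0.777 in K467N, 0.864 in K467R and 0.930 in WT, and 0.885 in trend-removed values (rho = 0.909, adjusted p = 0.00033). Ribosomal protein genes and glycolytic genes had r = 0.842 and rho = 0.839 (permutation p = 2e-05 and 3e-05, adjusted p = 8e-05 and 9e-05), and 0.902 without K467N 2 and WT 3. Within K467N, K467R and WT this was 0.816, 0.960 and 0.895, and with the trend removed r was 0.673 (adjusted p = 0.029) while rho was 0.647 and did not pass (adjusted p = 0.0537). Ribosomal protein genes and respiratory chain genes had r = 0.883 and rho = 0.862 (permutation p = 1e-05 and 2e-05, adjusted p = 6e-05 and 9e-05), but -0.02 with the trend removed. The iron list and respiratory chain genes moved in opposite directions (r = -0.677, rho = -0.699, permutation p = 0.00584 and 0.00338, adjusted p = 0.00779 and 0.00451), with -0.775 without WT 4 and WT 6. Within strains this was -0.783 in K467N, -0.545 in K467R and -0.694 in WT, and with the trend removed -0.469 (adjusted p = 0.132).

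Small RNAs were at low levels, where counting error is large. Of 81 small nucleolar and spliceosomal RNAs 42 were tested, and 39 of them were under 10 CPM. Their median SD was 0.340, against 0.257 from counting error alone, and the spread exceeded counting error in 29 of the 42 (69.0%), a lower share than the 84% of all tested genes. Most carry no poly(A) tail, so poly(A) libraries hold little of them. snR49 had 1.91, 3.03 and 5.14 CPM in K467N, 0.397, 1.24 and 4.89 CPM in K467R, and 1.74, 2.13 and 3.47 CPM in WT, so its spread was widest in K467R. HSP12, a stress-induced membrane protein, had 1.39 to 3.19 CPM in K467N, 1.59 to 7.74 CPM in K467R and 1.43 to 8.34 CPM in WT. It was high in K467R 1 and in WT 4.

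Other lists were steady. Purine synthesis genes had a median SD of 0.0686, amino acid synthesis genes under Gcn4 0.0757, ribosome assembly genes 0.0850 and ergosterol synthesis genes 0.0978. Among genes at 50 CPM or more, SAC1, a phosphoinositide phosphatase, had an SD of 0.02, with 307 to 325 CPM in K467N, 297 to 308 CPM in K467R and 307 to 316 CPM in WT. PDB1, a subunit of pyruvate dehydrogenase, spanned 599.7 to 613 CPM in K467N, 599.7 to 625 CPM in K467R and 606 to 645 CPM in WT. The 10 nuclear basket and TREX-2 genes had a median SD of 0.108.

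The 3 strains were then compared in how far their samples lay from their own mean. The root mean square deviation over genes averaged 0.163 ± 0.0349 log2 units in K467N, 0.184 ± 0.0462 in K467R and 0.161 ± 0.0119 in WT (SD, n = 6 each). None of the differences passed the exact permutation test (two-sided, 924 splits, smallest possible p = 0.00216). K467N exceeded WT by 0.00186 (exact p = 0.900), K467R exceeded WT by 0.0231 (exact p = 0.303, adjusted p = 0.584), and K467N minus K467R was -0.0213 (exact p = 0.390, adjusted p = 0.584). The distances of a strain share its mean and so are not fully independent.

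Among the 4944 genes at 10 CPM or more, the SD over 6 samples exceeded 0.25 in 138 genes of K467N (2.79%), 268 of K467R (5.42%) and 71 of WT (1.44%). The K467R count rested on few samples. It was 130 without K467R 1, 232 without K467R 4 and 89 without both, while K467N had 80 without K467N 2 and 85 without K467N 5. WT had 112 without WT 4 and 89 without WT 6. In trend-removed values the counts were 35 in K467N, 70 in K467R and 34 in WT. The median SD was 0.105 in K467N, 0.115 in K467R and 0.101 in WT.

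**Figure D5:**
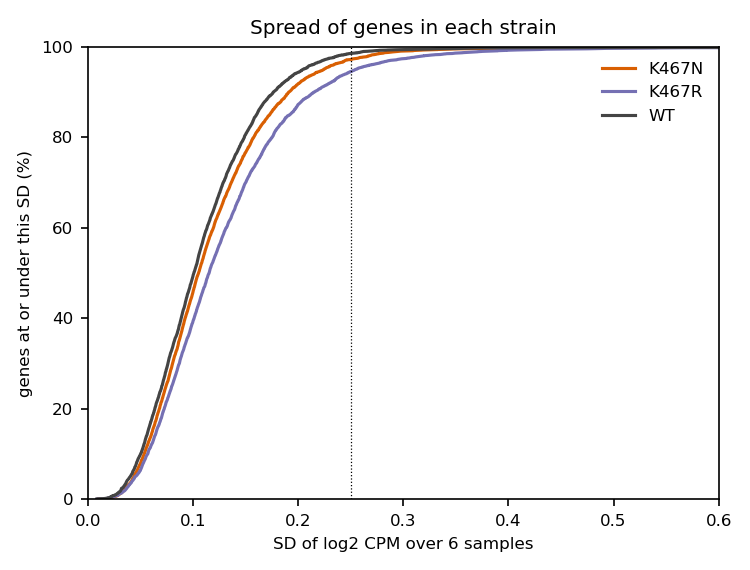
Share of the 4944 genes at 10 CPM or more (vertical axis, %) at or under each SD of log2 CPM over 6 samples (horizontal axis), 1 line per strain. The dotted line marks an SD of 0.25, which 138 genes exceed in K467N, 268 in K467R and 71 in WT.

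Gene by gene, the spread was tested with limma on absolute deviations from the strain mean. Against WT, 0 genes (0% larger and 0% smaller) passed in K467N and 0 genes (0% larger and 0% smaller) in K467R, with 190 and 550 genes at an unadjusted p under 0.05. Between the mutants, 1 gene had a larger spread in K467N than in K467R (0.0177%) and 0 genes (0%) a smaller one, with 364 at an unadjusted p under 0.05. That gene was ACF4, of unknown function, with 23.9, 27.7 and 30.2 CPM as its lowest, median and highest values in K467N, 27.8, 28.2 and 28.8 CPM in K467R, and 26.0, 27.3 and 29.9 CPM in WT. Its SD was 0.16 in K467N, 0.02 in K467R and 0.08 in WT (limma adjusted p = 0.0373 for K467N against K467R), and the call was lost under most other settings. The SD in K467R was below the median of 0.0480 that counting error alone would give at 10 CPM or more. The call thus rested at least partly on a very narrow spread in K467R. Genes with wide ranges in 1 strain were not called. OST5, with the largest SD in K467R among genes at 10 CPM or more, had SDs of 0.57 in K467N, 1.20 in K467R and 0.33 in WT (limma adjusted p = 0.459 for K467R against WT), and FIT2, widest in WT, had 0.63, 0.65 and 1.07 (limma adjusted p = 0.723 for K467R against WT).

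The strains shared part of their variable genes. In each strain the 248 genes of largest SD were 5.02% of the 4944, the share that lists drawn at random would have in common. Counting error is larger at low levels in every strain, so lists ranked by SD are not random draws. The part of read level in the overlap was not tested. Of the 248 genes of largest SD in each strain, K467N and WT shared 95 (38.3% of each list), K467R and WT 60 (24.2%), and K467N and K467R 125 (50.4%). In trend-removed values the 3 figures were 112, 97 and 110 of 247. Loadings of the first component computed in each strain alone correlated at 0.854 in size between K467N and WT, 0.630 between K467R and WT and 0.749 between K467N and K467R. In all 3 strains, 49 genes were in the 5% of largest SD. They included FIT1, FIT2, FIT3, TIS11, SIT1, FRE4, FRE1, FET3 and ENB1 of iron uptake, FRE7, OST5, PMP2, LSM2 and HTL1, and MFA1, ASG7 and AGA2 of mating.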

How the data were processed

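Poly(A) RNA of 18 samples was analysed from the deposited counts per gene, which are whole numbers and not normalised. Of the tools listed in the submitters' processing notes, HTSeq 0.6.1p1 is a read counter, STAR 2.5.3a an aligner and bcl2fastq 2.20.0.422 a demultiplexer. No molecular identifiers are mentioned, so counting error is the least error a count can have. Per the labels' protocols, stranded libraries were made from 600 ng of total RNA with 12 cycles of PCR. Neither the build nor the annotation nor the strand setting is stated in the sources, so overlapping and antisense genes, and near-identical copies such as RPL41A and RPL41B, are uncertain. Symbols, coding lengths, base content and upstream windows came from the R64 reference, which matched 5956 of 7036 features by identifier (1080 did not match). Of the 5660 tested features 5472 had a coding length.

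Genes were kept by filterByExpr and scaled by TMM (R 4.3.3, edgeR 4.0.16), and log2 CPM used a prior count of 2. Spread between strains was tested with limma 3.58.1 on absolute deviations, and tracking of sample measures with edgeR's quasi-likelihood test, both two-sided at a Benjamini-Hochberg adjusted p of 0.05. The trend was a spline of 4 degrees of freedom in coding length and in GC content, fitted in each sample. Correlations used 100000 permutations within strains. Correlations and figures used Python 3.11.15. Alternatives included DESeq2 1.42.0, other scalings, filters and prior counts, thinning to the smallest depth, and leaving out each sample. No sample was dropped from the values reported.

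Genes were named as the 24 of largest within-strain SD at 10 CPM or more, the ends of the component loadings, the 3 most variable members of the 10 most variable lists, genes called between strains and steady genes at 50 CPM or more. Other genes, among them FRE5, YKR040C and the members of groups, were named after their values were seen. The gene lists (46, of which 42 had at least 3 tested members) and the comparisons were chosen with earlier results of these data known. CRS5, DAN2, DAN3, HKT1 and MEL1 matched no feature. On simulated data, with changes put into genes of many counts, the steps recovered most of them. The difference in spread put in was far larger than that of most genes here. The simulation therefore does not show whether smaller differences in spread between strains would be found. Sample numbers follow accession order, and nothing in the labels says that equal numbers share a day or batch.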

Additional observations from a re-analysis of the deposited data

Results flagged for a closer look

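In each strain of 6, a sample was singled out where its gap to the nearest other sample, divided by the strain's whole range, exceeded Dixon's critical value, for 294 sets of values of genes, lists, groups and sample measures. There were 14 such values. Chance gives about 1 in 20, or 14.7 here, so their number is no more than chance gives. The sets also overlap, since genes, lists and groups share members.

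Of the 14, 7 were values of the copper list, of the group of 9 genes led by FRE7 or of members of that group, so they are not separate observations. The copper list was at -0.35 in K467N 3 and at -0.38 in K467R 1, and the group of 9 genes led by FRE7 was at -0.41 in K467N 3 and -0.33 in WT 5, all as log2 deviations from the strain mean. In K467N 3, FRE7 was at -0.82, CTR1 at -0.43 and IRC7 at -0.29, and the next lowest K467N sample was at 0.05, -0.01 and -0.01 for these genes in the same order. The iron list was not lowest in these samples.

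Among other genes, YOR338W was at -0.72 in WT 6. RPL41B was at 0.38 and HSP12 at 1.49 in K467R 1. FBP1, a gluconeogenic enzyme that glucose represses, was at -2.38 in K467R 4, where it had 0 counts. HIS3 was at 0.50 in K467R 1, where it had 0.071 CPM against 0 in the other K467R samples. PDB1 was at -0.0225 in K467N 3, a small shift in a gene chosen for its small spread. WT 1 had 19093010 counts on genes, the highest depth.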

How the results depend on the processing

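Of the values recomputed under the alternatives, 341 kept their direction, size or side of the threshold, 54 moved beyond the tolerance set for them, 8 reversed, 4 no longer passed and 1 newly passed. The cause of the changes below was not tested. For K467N against K467R the count of genes with a different spread was 1, and 0 under upper-quartile scaling, deviations from the median, squared deviations, thinning and removal of the trend. With no filter on low counts the 3 comparisons gave 40 (K467N against WT), 31 (K467R against WT) and 43 genes (K467N against K467R). Without K467R 1 and K467R 4, a choice made after seeing the data as was removal of the trend, K467R against WT and K467N against K467R gave 2 genes each. Leaving out 1 sample at a time gave 0 to 1, 0 to 1 and 0 to 3 genes, in the same order as above (1, 1 and 3 without K467R 4, 0, 1 and 1 without K467R 1, and 0, 0 and 2 without K467R 3). The call between the mutants was lost without any of K467N 1, 2, 3, 5 and 6, K467R 2, 5 and 6, and WT 1, 2, 4 and 5. The distance of K467N samples from their mean minus that of WT samples (0.00186) reversed to -0.00241 with no filter and to -0.00533 with the trend removed, and ranged from -0.0107 to 0.00945 with a sample left out (below 0 without K467N 2, K467N 5, WT 1 or WT 4). Depth was tracked by 1 gene with no filter. The share outside genes was tracked by 289 genes in all, 8 at a threshold of 0.01, 579 in DESeq2, 60 with the trend removed and 0 without K467R 1 and K467R 4, and by 0 to 900 with 1 sample left out (135, 13 and 16 without K467N 2, 5 and 6, 75, 900 and 0 without K467R 1, 3 and 4, and 177 without WT 5). The share with several alignments was tracked by 1095 genes with the trend removed. Component 1 held 21.5% of variance with no filter, 54.4% at 10 CPM or more and 24.9% with the trend removed, and component 2 held 9.45% with no filter and 15.1% with scaled genes. With the trend removed the correlation of ribosomal protein genes with respiratory chain genes became -0.0186 and that of G1/S genes with CLB2 cluster genes -0.0624 (0.744 before). Without K467R 1 and K467R 4, 17 of the 24 most variable genes stayed in the list, and 19 did with the trend removed. No paired analysis was possible because the labels number the samples through all strains and give no number, day or batch that strains share. At this depth a gene of 10 CPM has about as much counting error as the median gene has spread.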
